A study of Mus musculus with 21 samples.

Results

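This account compares adipocytes exposed to tumour necrosis factor-alpha (TNF) for 6 d with adipocytes exposed to it for 24 h, and asks which responses fade and which persist. Its members are the 6 arrays labelled TNF 24 h or TNF 6 d, 3 in each group, out of 21 arrays in the series. The cells were 3T3-L1, an established mouse preadipocyte line of clonal origin, turned into adipocytes over 14 days of culture. Untreated controls (0 h, 3 arrays) received neither agent. The other groups received TNF for 2 h, or the synthetic glucocorticoid dexamethasone (Dex, 20 nM) for 2 h, 24 h or 6 d, with 3 arrays each. The dose of TNF, the vehicle and the culture medium are not given in the sources used here. Exposure times were counted back from harvest, and the age of the cultures when TNF was added is not given, so time under TNF and age at first exposure cannot be told apart. The labels call the 3 arrays of a group biological replicates, and nothing says what was kept separate between them. The p-values therefore measure spread between arrays within groups, pooled over all 7 groups of the series. The series was designed to follow gene expression as adipocytes become insulin resistant.

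TNF is an inflammatory cytokine made in obese fat tissue. It binds its receptors and frees the transcription factor NF-kB from inhibitor proteins; NF-kB then switches on chemokines, acute phase proteins and its own inhibitors, which close a feedback loop. In many cell types TNF also leads to a slower interferon-type response, driven by interferon regulatory factors. In adipocytes it is known to lower the genes of lipid storage and insulin-stimulated glucose uptake.

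Levels are log2 values, and changes are log2 differences with the standard error (SE) of a limma fit. TNF 6 d replicate 2 stood apart from the other 20 arrays. Its correlation with the other TNF 6 d arrays was 0.842 to 0.844, against at least 0.978 within every other group. Probes near the 3' end of Actb and Gapdh exceeded those near the 5' end by 2.00, against at most 0.777 elsewhere. This gap widens as RNA degrades. Probe sets for the hybridisation controls averaged 14.19 on it, against 10.73 to 11.6 on the other arrays. Why this array stood apart was not tested. Among 2709 genes with a control level above 10 it lay below the mean of its partners by a median of -1.16, and among 3702 genes up to 7 the median was 0.07. Counts of calls and the main changes are therefore given from all 21 arrays and again without this array, which leaves 2 arrays against 3; a value marked as without replicate 2 and printed alone comes from the second fit only. TNF 24 h replicate 3 had a gap of 0.683. Probe sets near the highest value on any array, 15.06, may be compressed, so an uncalled change there does not show a stable level.

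**Figure D1:**
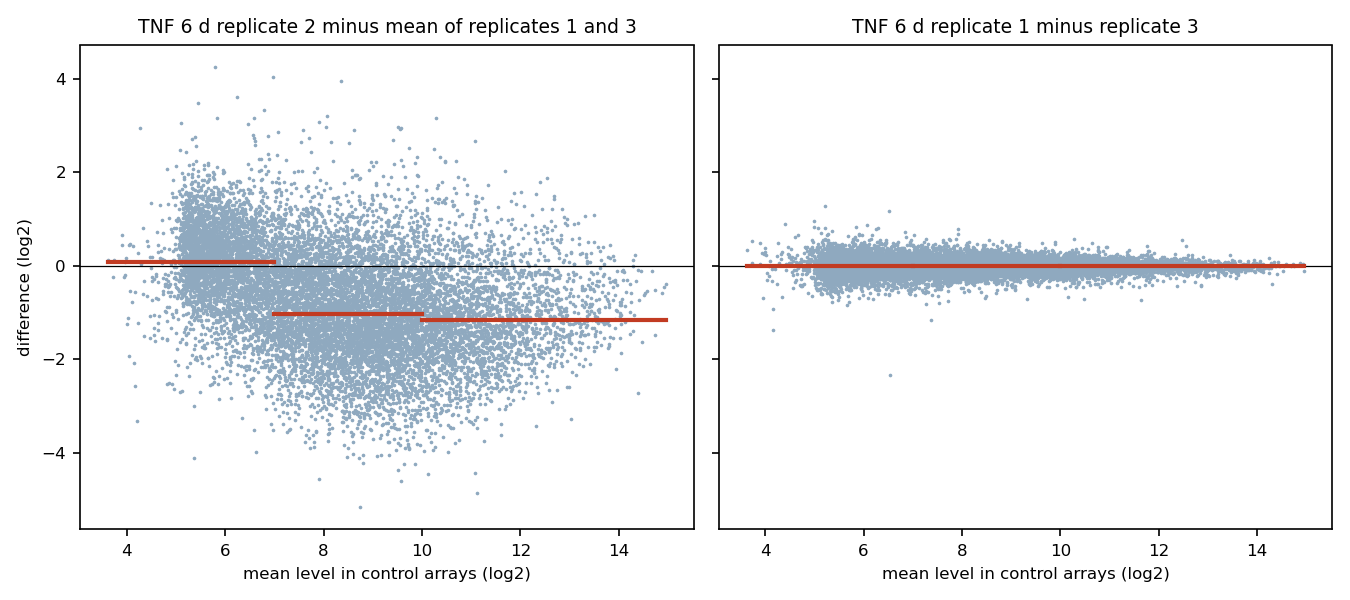
Difference (log2, y axis) against the mean level in the control arrays (log2, x axis) for each of 12156 genes tested, left for TNF 6 d replicate 2 minus the mean of replicates 1 and 3, right for replicate 1 minus replicate 3. Red lines are medians within 3 ranges of control level, -1.16 above 10 and -1.03 between 7 and 10 on the left, and near 0 on the right.

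From 24 h to 6 d, 728 of 12156 genes were called at an adjusted p below 0.05 with all arrays, 147 higher and 581 lower (5.99%, of which 1.21% higher and 4.78% lower). Leaving replicate 2 out brought 1118 calls, 499 of them higher and 619 lower (9.2%, of which 4.1% higher and 5.09% lower). Counts of list members called in this step are to be read against these shares. The balance between directions therefore rested on that array, and it also shifted when the arrays were rescaled: quantile normalisation gave 307 higher and 638 lower, cyclic loess 421 higher and 639 lower. The calls shared by both fits numbered 617, of which 491 were lower (4.04%) and 126 higher (1.04%), and no gene was called in opposite directions. Below, "fell" and "rose" are written of genes called in the same direction in both fits. The median change over all genes was -0.23 with replicate 2 and -0.02 without it. These calls rest on a spread pooled over all groups: fitting only the groups compared gave 2 calls with replicate 2 and 419 without it.

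Many of the genes that TNF had switched on earliest were called lower at 6 d. On the control and TNF 2 h arrays, which take no part in the step from 24 h to 6 d, 252 genes were called and at least 2-fold higher at 2 h (2.07% of the genes tested) and 51 at least 2-fold lower (0.42%). Of the 252, 118 (46.8%) were called lower from 24 h to 6 d and 1 higher; without replicate 2 these counts were 121 (48.0%) and 0, against 5.09% and 4.1% of all genes. Their median change was -0.79 with replicate 2 and -0.54 without it. Decline was not the same as return: at 6 d, without replicate 2, 148 of the 252 were still called above control (10.5% of all genes were), against 207 at 24 h (13.2% of all genes). With all arrays these counts were 90 (35.7% of the 252, and 4.52% of all genes) and 170 (5.41% of all genes). The counts above control use the same control arrays that chose the 252 genes, so part of their excess over all genes may be built in. Of the 51 genes lowered at 2 h, 9 were called higher from 24 h to 6 d and 1 lower (1.21% and 4.78% of all genes were). Without replicate 2 these counts were 12 and 1 (4.1% and 5.09% of all genes).

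**Figure D2:**
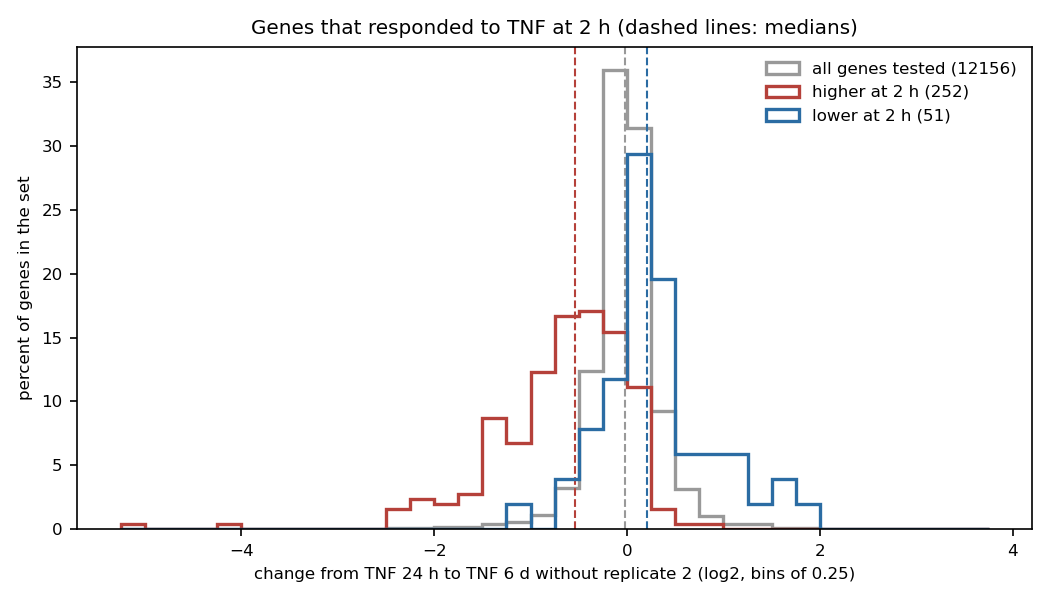
Percent of genes in each set (y axis) by change from TNF 24 h to TNF 6 d without replicate 2 (log2, x axis, bins of 0.25), for all 12156 genes tested, the 252 higher at 2 h and the 51 lower at 2 h. Dashed lines are medians, at -0.54 for the genes higher at 2 h and 0.21 for those lower at 2 h.

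The interferon-type response declined across nearly the whole list. Of 34 interferon response genes tested, all 34 were called above control at 24 h without replicate 2, and 33 with it. From 24 h to 6 d 31 were called lower and none higher with all arrays, and 31 and 0 without replicate 2, with a median change of -1.42. The list remained partly raised: 27 of 34 were called above control at 6 d without replicate 2, and 15 with it. When any 1 array was left out, alone or together with replicate 2, the count of lower calls was at least 25. The 4 members outside the shared calls were Stat2, Oas3, Ifi35 and Ifitm3, each with a value below 0.

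The 3 CXCR3 ligands, chemokines that attract activated T cells, fell steeply. Cxcl9 read 12.78, 12.54 and 12.69 at 24 h and 7.84, 5.13 and 7.47 at 6 d, from a control mean of 4.82 ± 0.30 (SD, n = 3). Its groups were more than 4 log2 units apart on every pair of arrays. The change was -5.85 ± 0.43 (limma adjusted p = 2.21e-07), and -5.01 ± 0.18 without replicate 2 (adjusted p = 3.79e-13). Cxcl10 read 13.19, 13.09 and 12.42 at 24 h and 9.24, 5.86 and 8.49 at 6 d. Replicate 2 was again the lowest at 6 d, and all 3 arrays lay above the control mean of 5.36. The change was -5.03 ± 0.53 (limma adjusted p = 1.51e-05), and -4.03 ± 0.26 without replicate 2 (adjusted p = 3.08e-09). Cxcl11 changed by -3.66 ± 0.44 with all arrays and -2.94 ± 0.30 without replicate 2, and differed from its partners in timing, with a mean of 5.81 at 2 h against 11.09 for Cxcl9 and 13.40 for Cxcl10.

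Effectors of the antiviral state followed. Ifit1, which binds viral RNA lacking a host-type cap, read 10.88, 10.96 and 10.90 at 24 h and 8.73, 5.99 and 8.24 at 6 d, with a control mean of 6.94. It fell by 3.26 ± 0.50 with all arrays and by 2.43 ± 0.32 without replicate 2 (limma adjusted p = 0.000524 and 2.96e-05). Rsad2, also called viperin, did not depend on the outlying array, which read 7.22 between 7.27 and 6.76 on its partners. From 10.61, 10.67 and 10.10 at 24 h it changed by -3.38 ± 0.19, and by -3.44 ± 0.19 without replicate 2. Zbp1, a sensor of left-handed nucleic acid, fell from a mean of 10.40 to 8.05 without replicate 2, and Oasl2, an oligoadenylate synthetase-like protein, from 10.76 to 8.26. The regulator Irf1 had peaked early, with means of 10.26 in controls, 13.87 at 2 h and 11.90 at 24 h, and at 6 d read 10.75, 9.80 and 10.61. Irf7, which amplifies the response, read 6.83, 5.67 and 6.64 at 6 d against a control mean of 6.87, a difference from control of -0.13 ± 0.24 that was not called (limma adjusted p = 0.756 without replicate 2).

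Promoters of 4 of these genes are shown to display the motifs found in interferon response genes and in NF-kB's own regulators. Each line gives the 250 bases before the start of the gene from RefSeq (GRCm38.p6), 5' to 3' on the gene's strand, with matches to 2 motifs in capitals: GAAA followed by any 2 bases and another GAAA, the core of the interferon-stimulated response element, and the kB consensus bound by NF-kB, both searched on either strand. The Cxcl10 window, chr5:92348890-92349139 on the minus strand, holds 1 interferon element and 3 kB matches, 2 of which overlap.
Cxcl10: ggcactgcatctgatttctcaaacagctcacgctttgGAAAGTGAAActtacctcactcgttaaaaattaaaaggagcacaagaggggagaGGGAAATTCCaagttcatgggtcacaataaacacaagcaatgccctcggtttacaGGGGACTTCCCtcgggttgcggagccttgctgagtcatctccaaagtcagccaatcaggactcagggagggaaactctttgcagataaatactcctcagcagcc
The Ifit1 window, chr19:34640639-34640888 on the plus strand, holds 2 interferon elements and no kB match.
Ifit1: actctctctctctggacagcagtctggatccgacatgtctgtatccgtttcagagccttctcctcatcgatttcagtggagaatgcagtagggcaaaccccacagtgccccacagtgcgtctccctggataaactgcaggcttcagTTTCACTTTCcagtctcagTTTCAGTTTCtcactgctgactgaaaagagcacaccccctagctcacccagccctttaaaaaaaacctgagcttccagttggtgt
The Tnfaip3 window, chr10:19015411-19015660 on the minus strand, holds 2 kB matches and no interferon element, and another window of this gene in the table holds neither.
Tnfaip3: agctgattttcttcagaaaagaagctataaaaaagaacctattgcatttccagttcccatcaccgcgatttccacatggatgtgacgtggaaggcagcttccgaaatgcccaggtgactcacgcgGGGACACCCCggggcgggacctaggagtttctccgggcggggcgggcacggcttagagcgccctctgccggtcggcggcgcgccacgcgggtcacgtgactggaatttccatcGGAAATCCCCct
The Nfkbia window, chr12:55492648-55492897 on the minus strand, holds 1 kB match.
Nfkbia: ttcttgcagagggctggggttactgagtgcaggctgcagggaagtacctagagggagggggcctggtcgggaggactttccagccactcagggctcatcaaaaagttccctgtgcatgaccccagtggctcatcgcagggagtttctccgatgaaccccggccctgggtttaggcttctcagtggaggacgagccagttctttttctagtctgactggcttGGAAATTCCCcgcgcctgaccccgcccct
Of the interferon genes tested, 26 had a promoter in the table, and 13 of these (50%) held the interferon element, against 3.46% of 27025 genes, and 6 (23.1%) held the kB consensus. Of 14 NF-kB subunits and inhibitors with a promoter, 7 (50%) held the kB consensus and 0 the interferon element, against 8.23% of all genes for the kB consensus. The 4 genes shown each have a window with a match. The Cxcl9 and Oasl2 windows hold neither motif, and that of Saa3, which stayed high, holds 1 interferon element. Of 11 antigen processing genes with a promoter, 1 (9.09%) held the interferon element and 4 (36.4%) the kB consensus. A match describes these letters only.

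NF-kB's own regulators declined as well, and remained above control in part. Of 16 subunits and inhibitors tested, 13 were called above control at 24 h and 8 at 6 d without replicate 2, and 11 and 6 with it. From 24 h to 6 d 12 were called lower and none higher in both fits, with a median of -0.84 without replicate 2, and the count stayed at 10 or more when any 1 array was left out. Tnfaip3, the ubiquitin-editing enzyme A20 that shuts off the pathway upstream, read 11.09, 11.22 and 10.90 at 24 h and 9.27, 5.24 and 8.73 at 6 d. Its control mean was 7.62, so replicate 2 lay below control and its partners above. The change was -3.32 ± 0.62 with all arrays and -2.07 ± 0.17 without replicate 2 (limma adjusted p = 0.00297 and 1.1e-07). Nfkbia, the classical inhibitor that holds NF-kB in the cytoplasm, read 13.70, 13.71 and 13.78 at 24 h and 13.15, 12.01 and 12.83 at 6 d. It fell by 1.07 ± 0.19 and without replicate 2 by 0.74 ± 0.11, and remained 1.21 ± 0.11 above control.

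Members of this family did not return to the same degree. Rela, the main transactivating subunit, was 0.83 ± 0.09 above control at 24 h and 0.08 ± 0.10 at 6 d without replicate 2, the latter not called (limma adjusted p = 0.616). Nfkbie, another inhibitor, was at 4.99 in controls and 11.68 at 24 h, fell by 1.70 ± 0.31 with all arrays and 1.22 ± 0.21 without replicate 2, and was still 5.47 ± 0.21 above control. Bcl3, a nuclear coactivator of this family, read 9.10, 8.73 and 9.70 at 24 h and 7.37, 6.53 and 7.31 at 6 d, and Relb, the subunit of the slower alternative pathway, read 9.35, 9.17 and 9.71 and then 8.17, 6.23 and 7.96. In neither gene did the groups overlap. Birc3, an NF-kB-induced brake on cell death, fell by 1.26 ± 0.16 without replicate 2 from a 24 h mean of 10.81.

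Immediate early factors, which answer growth and stress signals within hours, were lower in 12 of 34 with all arrays and 13 without replicate 2, with none higher. The shares called lower over all genes were 4.78% and 5.09%. Egr2 read 7.47, 7.57 and 7.35 at 24 h and 5.34, 4.47 and 5.12 at 6 d. The groups did not overlap, and at 6 d it was not called different from control (-0.06 ± 0.25 without replicate 2). The change was -2.23 ± 0.25 without replicate 2 (limma adjusted p = 5.2e-06). The AP-1 subunit Fosl1 changed by -2.31 ± 0.24 and Ier3, an early response gene linked to survival, by -2.09 ± 0.18 without replicate 2. Both ended below control at 6 d, Ier3 by -0.91 ± 0.18 and Fosl1 by -0.70 ± 0.24 (limma adjusted p = 0.000943 and 0.0486); for Fosl1 this was not called with replicate 2 (adjusted p = 0.32). The metallothioneins, zinc-binding proteins, fell together: Mt2 read 13.32, 13.23 and 13.79 at 24 h and 11.33, 9.91 and 11.17 at 6 d, and Mt1 changed by -0.91 ± 0.11 with all arrays and -0.80 ± 0.10 without replicate 2. The superoxide dismutase of mitochondria, Sod2, fell from 13.90, 13.86 and 14.09 to 13.08, 10.97 and 12.99.

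Many antigen processing genes were called lower. Of 16 genes tested, 11 were called lower with all arrays (4.78% of all genes were) and 10 without replicate 2 (5.09%). None was called higher, and the median without replicate 2 was -0.85. The immunoproteasome subunit Psmb8 read 11.94, 11.95 and 12.51 at 24 h and 10.63, 8.32 and 10.56 at 6 d, a change of -2.30 ± 0.41 with all arrays and -1.54 ± 0.20 without replicate 2. The peptide transporter Tap1 read 8.79, 8.94 and 8.98 and then 7.19, 6.80 and 7.22, a change of -1.83 ± 0.15 with all arrays (limma adjusted p = 7.36e-07). Tap2 and Tapbpl, a peptide editor, also fell. H2-K1, a class I heavy chain that presents the peptides, was not called: it read 14.31, 14.29 and 13.95 at 24 h and 14.22, 13.00 and 14.24 at 6 d, a difference of -0.36 ± 0.27 with all arrays and 0.05 ± 0.19 without replicate 2, with overlapping groups. Its partner B2m differed by -0.31 ± 0.17 and 0.02 ± 0.07. Both were still called above control at 6 d without replicate 2, by 1.16 ± 0.19 and 0.50 ± 0.07, but not with it (adjusted p = 0.066 and 0.48). Class I genes are near-identical copies, and 2 of the 4 bright H2-K1 probe sets had the opposite sign, so their signals cannot be assigned firmly to 1 gene.

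Secreted acute phase proteins and several chemokines stayed high through 6 d. The genes named here as persistent were chosen after their values were seen. Saa3, an acute phase apolipoprotein, read 14.61, 14.67 and 14.48 at 24 h and 14.24, 13.27 and 14.20 at 6 d, from 6.28 ± 0.42 (SD, n = 3) in controls. It was 7.95 ± 0.23 above control at 6 d without replicate 2, and its difference from 24 h was not called with all arrays (-0.68 ± 0.28, limma adjusted p = 0.13) or without replicate 2 (-0.36 ± 0.23, adjusted p = 0.403). Every 6 d array lay below every 24 h array. The levels of Saa3 lie near the top of the scale, so both differences may be understated. Haptoglobin, Hp, which binds free haemoglobin, fell by only 0.27 ± 0.07 without replicate 2 and 0.53 ± 0.15 with it, and was 3.64 ± 0.07 above control. Its call in the step was lost when 1 further array was left out in many of the cases tried, TNF 24 h replicate 1 among them (-0.51 with replicate 2 kept and -0.26 without it). Hemopexin, Hpx, the scavenger of haem, fell by 1.30 ± 0.31 with all arrays and by 0.82 ± 0.21 without replicate 2, and was then 6.95 ± 0.21 above control.

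The family was not uniform. Of 14 acute phase genes tested, 8 were called lower and 1 higher in both fits (4.04% and 1.04% of all genes were). Only 3, 4 or 2 were called lower when TNF 24 h replicate 1, 2 or 3 was left out. Lcn2, which binds bacterial iron carriers, read 10.73, 9.72 and 11.63 at 24 h and 8.43, 4.57 and 8.91 at 6 d, and its change of -3.39 ± 0.75 became -2.92 and was not called without TNF 24 h replicate 3. Timp1, an inhibitor of matrix proteases, read 12.12, 11.84 and 13.01 and then 10.29, 7.28 and 10.47, a change of -1.95 ± 0.27 without replicate 2. S100a8, a calcium-binding alarmin, changed by -2.15 ± 0.32 with all arrays and -1.74 ± 0.27 without replicate 2.

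Chemokines divided along a similar line. Ccl5, which draws T cells and monocytes, was raised at 2 h and higher still at 24 h. Its mean was 5.20 in controls and 9.68 at 2 h, and it read 14.25, 14.18 and 14.50 at 24 h, and 13.79, 12.40 and 13.60 at 6 d. The step from 24 h was -0.62 ± 0.24 without replicate 2 and was not called (limma adjusted p = 0.123), though every 6 d array lay below every 24 h array. Ccl8 and Ccl9, both monocyte attractants, differed by -0.06 ± 0.34 and 0.22 ± 0.20 without replicate 2 and by -0.81 ± 0.48 and -0.37 ± 0.35 with it, none of them called, with Ccl9 still 4.50 ± 0.20 above control. The neutrophil chemokine Cxcl5 was at 11.49, 11.26 and 11.02 at 24 h and 11.21, 7.50 and 11.31 at 6 d; without the outlying array the change was 0.00 ± 0.20, with it -1.25 ± 0.62. By contrast Ccl20, which attracts cells bearing CCR6, returned to its control mean of 5.43, with 7.59, 7.70 and 7.67 at 24 h and 5.40, 4.96 and 5.33 at 6 d. Ccl2, the principal monocyte attractant of fat, was intermediate: it read 14.07, 13.92 and 14.08 and then 12.97, 9.21 and 12.57, a change of -1.25 ± 0.22 without replicate 2, and stayed 5.52 ± 0.22 above control. In the fit of all arrays its call was lost when any TNF 24 h array was left out (changes of -2.42, -2.49 and -2.41). Over the list, 5 of 11 CC chemokines and Cx3cl1 fell and 8 were called above control at 24 h in either fit, against 7 at 6 d without replicate 2 and 6 with it; without TNF 24 h replicate 3 the lower calls were 3.

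Other cytokine genes lay between these patterns. Ccl7, another monocyte attractant, read 12.07, 12.05 and 12.72 at 24 h and 10.88, 7.77 and 10.90 at 6 d, and fell by 1.39 ± 0.22 without replicate 2. With all arrays its change was -2.43 ± 0.54, and the call was lost without TNF 24 h replicate 3 (-2.21). Cxcl1, a neutrophil chemokine, read 9.68, 9.55 and 10.11 and then 9.09, 9.23 and 9.05, groups that did not overlap; its change of -0.66 ± 0.15 with all arrays was also lost without TNF 24 h replicate 3 (-0.49). Il6, which drives the acute phase response, read 8.25, 8.05 and 8.70 and then 7.47, 4.67 and 7.11, and was called with replicate 2 (-1.92 ± 0.53, limma adjusted p = 0.039), a call lost when most other arrays were left out singly, TNF 24 h replicate 3 among them (-1.73), but not without it (-1.04 ± 0.36, adjusted p = 0.0772). Il15, a growth factor of lymphocytes, read 8.80, 9.25 and 8.38 and then 7.14, 4.48 and 6.97. It fell in both fits, by 1.76 ± 0.22 without replicate 2.

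Some complement genes were called higher. Of 8 tested, 3 were called higher and none lower with all arrays (1.21% and 4.78% of all genes were). Without replicate 2, 4 were called higher (4.1% of all genes). Only 1 was called higher when TNF 24 h replicate 1 or 2 was left out. Masp1, a protease of the lectin pathway, read 7.01, 7.18 and 7.85 at 24 h and 9.04, 7.57 and 8.95 at 6 d, from a control mean of 6.82, and its call with all arrays was lost without TNF 24 h replicate 1 or 2 (1.01 and 1.09). Cd55, which protects host cells from complement, read 5.42, 5.40 and 5.15 and then 6.61, 6.17 and 7.14, a rise of 1.31 ± 0.18 with all arrays and 1.55 ± 0.16 without replicate 2. Factor B, Cfb, read 14.42, 14.24 and 14.20 and then 13.93, 12.37 and 13.56, with every 6 d array below every 24 h array. Its change of -0.54 ± 0.24 without replicate 2 was not called (limma adjusted p = 0.202).

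**Figure D3:**
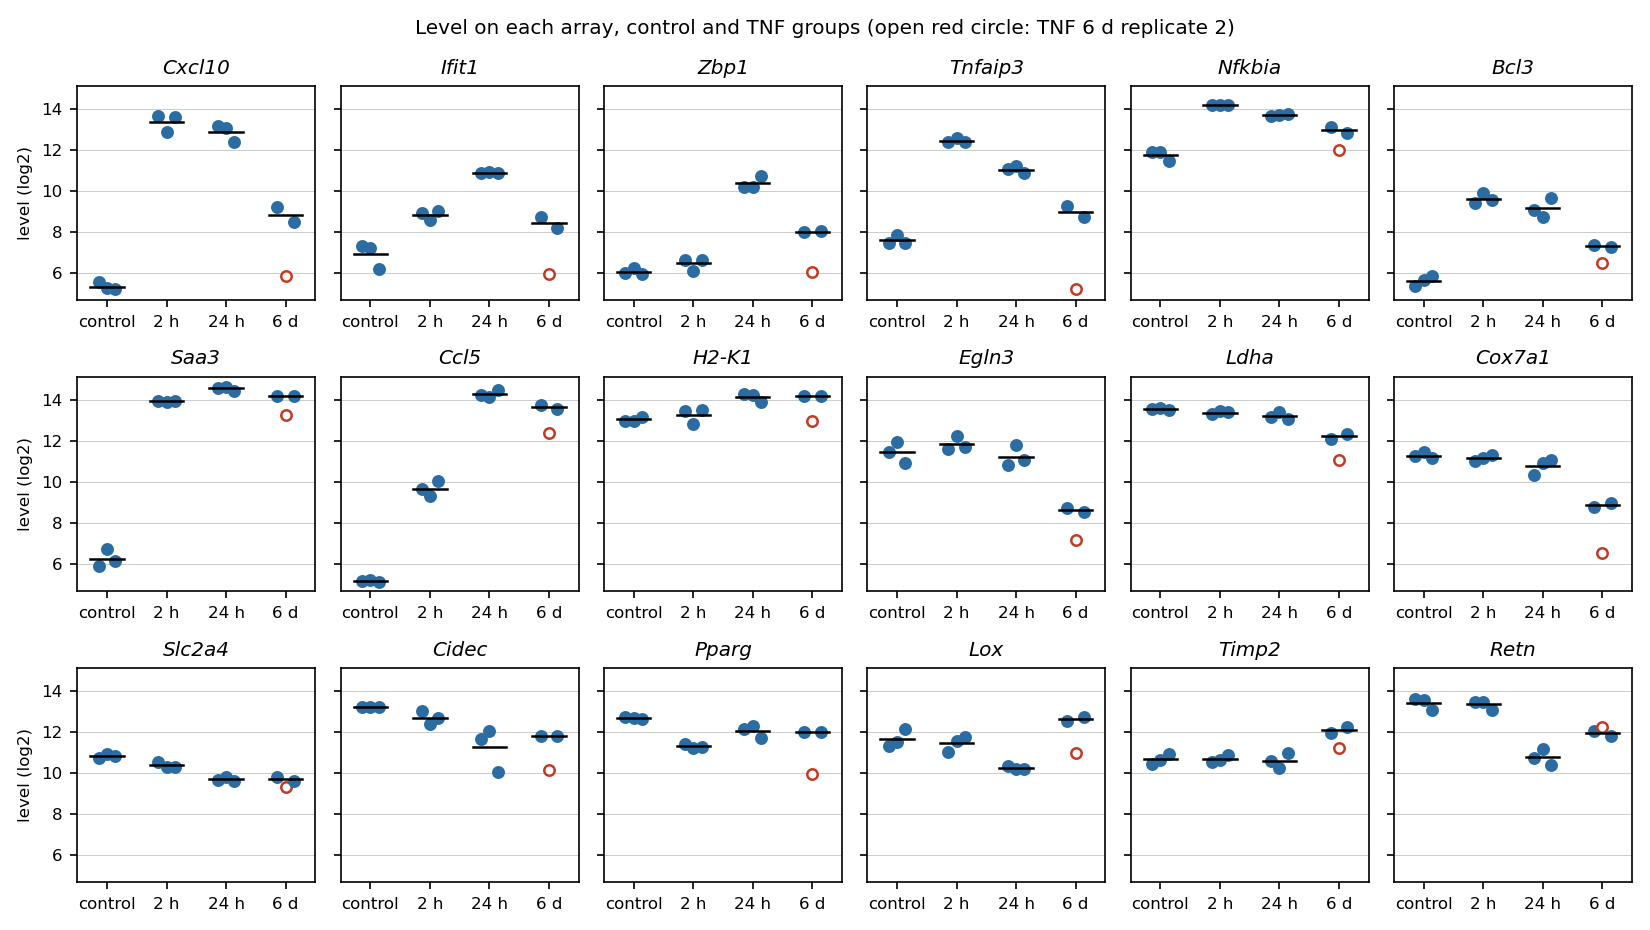
Level (log2, y axis) of 18 genes on each of 3 arrays in control, TNF 2 h, TNF 24 h and TNF 6 d groups. Bars are group means, at 6 d without replicate 2, which is drawn as an open red circle. Cxcl10, Ifit1, Zbp1, Tnfaip3, Nfkbia and Bcl3 drop from 24 h to 6 d, Saa3, Ccl5 and H2-K1 stay high, Egln3, Ldha and Cox7a1 drop below control, Slc2a4, Cidec and Pparg stay below control, and Lox, Timp2 and Retn are higher at 6 d than at 24 h.

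A separate set of genes fell below the untreated level. Of 24 glycolysis and hypoxia genes tested, 13 were called lower from 24 h to 6 d with all arrays and 12 without replicate 2, with none higher and a median of -0.65 without replicate 2. Leaving out TNF 24 h replicate 2 or 3 gave 8. Against control without replicate 2, 7 were called lower at 24 h (12.4% of all genes) and 16 at 6 d (9.93% of all genes), and with all arrays 2 (3.27% of all genes) and 16 (10.7% of all genes). Egln3, an oxygen-sensing prolyl hydroxylase that is itself induced by hypoxia, read 10.87, 11.82 and 11.08 at 24 h and 8.75, 7.17 and 8.56 at 6 d, against 11.48 ± 0.51 (SD, n = 3) in controls. The change was -2.60 ± 0.43 without replicate 2 (limma adjusted p = 0.000359). Ldha, which turns pyruvate into lactate, read 13.21, 13.44 and 13.12 and then 12.11, 11.10 and 12.38, and Pgk1, which makes ATP in glycolysis, read 13.82, 14.16 and 13.65 and then 12.99, 11.17 and 13.08. Relative to control they stood at -1.32 ± 0.11 and -1.0 ± 0.12 at 6 d without replicate 2. Pfkl, the liver form of phosphofructokinase, fell by 1.65 ± 0.28 with all arrays and by 1.41 ± 0.26 without replicate 2, and Bnip3, a hypoxia-induced mitophagy receptor, by 1.28 ± 0.25 and 0.86 ± 0.15. Under Dex the same step changed Egln3 by -1.18 and Ldha by -0.70, and of the 24 genes 3 were called lower and 1 higher under TNF than under Dex without replicate 2, and 0 with it.

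Calls among genes of oxidative metabolism in the step from 24 h to 6 d did not stand out from the share over all genes. Their counts below control depended on the fit. Of 46 genes of mitochondrial oxidation, 37 were called below control at 24 h and 33 at 6 d without replicate 2 (12.4% and 9.93% of all genes were). With all arrays these counts were 17 and 39 (3.27% and 10.7% of all genes). Between the times 2 were called lower and 1 higher without replicate 2 (5.09% and 4.1% of all genes were), with a median of 0.08. With all arrays 2 were called lower and 0 higher (4.78% and 1.21% of all genes), with a median of -0.24. Cpt2, which readies fatty acids for oxidation, read 10.84, 10.86 and 10.94 at 24 h and 11.04, 9.91 and 11.12 at 6 d, below a control mean of 12.06. Cox7a1, a subunit of cytochrome oxidase, was an exception, reading 10.34, 10.95 and 11.09 and then 8.79, 6.57 and 9.0, a change of -1.90 ± 0.21 without replicate 2. Of 18 genes of branched-chain amino acid breakdown, 17 were called below control at 24 h and 13 at 6 d without replicate 2, but 6 and 14 with all arrays, and 0 were called in the step between in either fit. Of 20 cholesterol synthesis genes these counts were 15 and 12 without replicate 2 and 3 and 10 with all arrays, again with 0 called in the step in either fit. Lists this short would hold few calls at the share over all genes.

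Genes of glucose transport and lipid storage that were not called in the step follow. Slc2a4, which encodes the insulin-responsive glucose transporter GLUT4, read 9.68, 9.82 and 9.62 at 24 h and 9.81, 9.36 and 9.65 at 6 d, against 10.85 ± 0.11 (SD, n = 3) in controls. Its groups overlapped, the change was 0.02 ± 0.12 without replicate 2, and it was -1.11 ± 0.12 relative to control at 6 d. Mgll, which completes triglyceride breakdown, stayed low, at 8.16, 8.60 and 7.75 and then 8.38, 8.25 and 8.83 from a control mean of 10.81. Pparg, the master regulator of adipocyte identity, read 12.19, 12.32 and 11.75 at 24 h, 9.97 on TNF 6 d replicate 2 and a mean of 12.01 on its partners, with a control mean of 12.72, and the level on replicate 2 alone set the difference between the fits (-0.76 ± 0.35 with it, -0.08 ± 0.13 without it, neither called). Cebpa, its partner, changed by 0.12 ± 0.21 without replicate 2. TNF 24 h replicate 3 was low for several of these genes, with 10.09 for the lipid droplet protein Cidec against 11.66 and 12.09 on its partners.

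Of 21 lipolysis and lipid droplet genes 4 were called lower and none higher with all arrays (4.78% and 1.21% of all genes were). Without replicate 2 these counts were 5 and 1 (5.09% and 4.1% of all genes). Lipe, Pnpla2 and Irs1 were called in neither fit. Lipe, the hormone-sensitive lipase, read 10.59, 10.82 and 10.09 at 24 h and 10.92, 10.56 and 10.66 at 6 d, overlapping groups below a control mean of 11.76. Pnpla2, the lipase that starts triglyceride breakdown, changed by -0.04 ± 0.09 without replicate 2 and stood at -0.65 ± 0.09 relative to control. Irs1, which relays the insulin receptor's signal, read 12.22, 12.35 and 11.95 and then 12.54, 11.01 and 12.41, so that only replicate 2 lay below all 24 h arrays. Its change was -0.19 ± 0.28 with that array and 0.30 ± 0.16 without it. Pck1, which supplies glycerol for triglyceride from smaller precursors, read 10.77, 10.98 and 10.29 and then 10.29, 8.23 and 10.36, and was not called in either fit (limma adjusted p = 0.102 and 0.299). Lpl, the lipase that frees fatty acids for uptake, and Scd1, a fatty acid desaturase, differed by 0.12 ± 0.06 and by less than its SE of 0.06 without replicate 2.

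The adipocyte markers Adipoq and Fabp4 stayed near the top of the scale at both times. Of 18 adipokines and adipocyte markers tested, 13 were called below control at 24 h and 10 at 6 d without replicate 2. Over all genes these shares were 12.4% and 9.93%. With all arrays the counts were 8 and 10 (3.27% and 10.7% of all genes). Adipoq, which encodes adiponectin, read 14.65, 14.73 and 14.48 at 24 h and 14.77, 14.16 and 14.71 at 6 d, and the fatty acid carrier Fabp4 lay between 14.49 and 14.96 on all 6 arrays. A few lipid genes partly recovered. Thrsp, a regulator of lipogenesis, read 12.26, 12.41 and 11.46 at 24 h and 13.31, 12.69 and 13.32 at 6 d, a rise of 1.07 ± 0.19 with all arrays and 1.27 ± 0.17 without replicate 2; it was still -0.60 ± 0.17 relative to control. Retn, which encodes resistin, read 10.76, 11.20 and 10.43 and then 12.09, 12.25 and 11.85, a rise of 1.27 ± 0.18 in which replicate 2 lay with its partners, and was -1.47 ± 0.18 relative to control. Gpd1, which makes the glycerol backbone of triglyceride, rose by 0.54 ± 0.09 without replicate 2 and by 0.46 ± 0.11 with it, where leaving out TNF 24 h replicate 2 or 3 ended the call (0.46 and 0.43). Fasn, the fatty acid synthase, read 11.37, 11.38 and 11.23 and then 11.68, 12.27 and 11.69, groups that did not overlap, with an adjusted p of 0.0518 with all arrays and 0.0821 without replicate 2.

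Among matrix remodelling genes more were called higher than lower, mainly without the outlying array. Of 28 tested, 6 were called higher and 4 lower with all arrays (1.21% and 4.78% of all genes were). Without replicate 2 these counts were 12 and 3 (4.1% and 5.09% of all genes), with a median of 0.40. Lox, the enzyme that cross-links collagen, read 10.35, 10.23 and 10.24 at 24 h and 12.58, 10.98 and 12.74 at 6 d, from 11.68 ± 0.45 (SD, n = 3) in controls. It rose by 1.83 ± 0.35 with all arrays and by 2.39 ± 0.23 without replicate 2 (limma adjusted p = 0.00387 and 8.61e-07), passing from below control to 0.98 ± 0.23 above it. Timp2, a metalloproteinase inhibitor, read 10.59, 10.26 and 11.01 and then 11.98, 11.23 and 12.25, against a control mean of 10.70. Timp4, its adipocyte-enriched relative, had dropped from 9.71 to 6.27, 6.65 and 6.40 at 24 h and rose only to 7.54, 7.93 and 7.45. The metalloproteinases Mmp2 and Mmp11 and the plasminogen activator Plat were called higher without replicate 2 only, by 0.96 ± 0.22, 1.36 ± 0.26 and 1.41 ± 0.18.

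Of 42 collagens and other matrix proteins, 3 were called higher and 4 lower with all arrays (1.21% and 4.78% of all genes were). Without replicate 2 these counts were 10 and 4 (4.1% and 5.09% of all genes). The calls shared by both fits were 2 higher and 4 lower. Changes ran from -1.57 to 2.18 without replicate 2, and the genes named below do not include those called lower. The fibrillar collagens themselves changed little: Col1a1 by 0.36 ± 0.29 and Col3a1 by 0.21 ± 0.09 without replicate 2, neither called. Small proteoglycans that coat collagen fibres carried larger values. Dcn, decorin, read 12.60, 12.28 and 12.42 at 24 h and 13.75, 12.71 and 13.96 at 6 d, above 12.77 in controls, a rise of 1.42 ± 0.23 without replicate 2; with it the rise was 1.04 ± 0.29 and the call was lost when any of several single arrays was left out, TNF 6 d replicate 3 among them (0.80). Lum, lumican, read 10.22, 10.06 and 9.84 and then 11.85, 10.38 and 12.59 and was called without replicate 2 only (2.18 ± 0.41, limma adjusted p = 0.00122), a call lost when TNF 6 d replicate 3 was also left out (1.81).

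Markers of preadipocytes and fibroblasts were called higher in 3 of 23 and lower in 1 with all arrays (1.21% and 4.78% of all genes were). Without replicate 2 these counts were 9 and 1 (4.1% and 5.09% of all genes). Changes in this list ran from -2.43 to 1.92 without replicate 2. The gene called lower was the same in both fits and is not among the markers named next. S100a4, a fibroblast marker, read 12.22, 12.32 and 12.53 and then 13.38, 12.69 and 13.63, and Gas1, a growth arrest gene of mesenchymal cells, 12.41, 12.40 and 12.49 and then 13.38, 12.85 and 13.47. Pdgfra, the receptor that marks adipocyte progenitors, read 12.64, 12.46 and 12.28 and then 13.18, 11.93 and 13.18; it was called without replicate 2 only (0.72 ± 0.16), as was Dlk1 (0.68 ± 0.21). In that fit the Dlk1 call was lost when any of the 5 remaining TNF 24 h and 6 d arrays was left out (0.57 to 0.80), and the Pdgfra call when TNF 6 d replicate 1 or 3 was (0.72 in each case). The S100a4 call with all arrays was lost without TNF 24 h replicate 1 (0.81). In cultures of mixed maturity, a change in the share of cells and a change in RNA per cell cannot be told apart. Acta2, the smooth muscle actin of activated fibroblasts, was 2.30 ± 0.19 above control at 24 h without replicate 2 and stayed there, at 11.34, 10.93 and 11.55 and then 11.35, 10.94 and 11.46. Cell cycle genes were called higher in 1 of 40 and lower in 1 with all arrays (1.21% and 4.78% of all genes were). Without replicate 2 these counts were 8 and 2 (4.1% and 5.09% of all genes). Top2a, which untangles DNA in dividing cells, read 6.66, 6.73 and 6.81 and then 7.20, 5.63 and 7.39, and was not called.

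**Figure D4:**
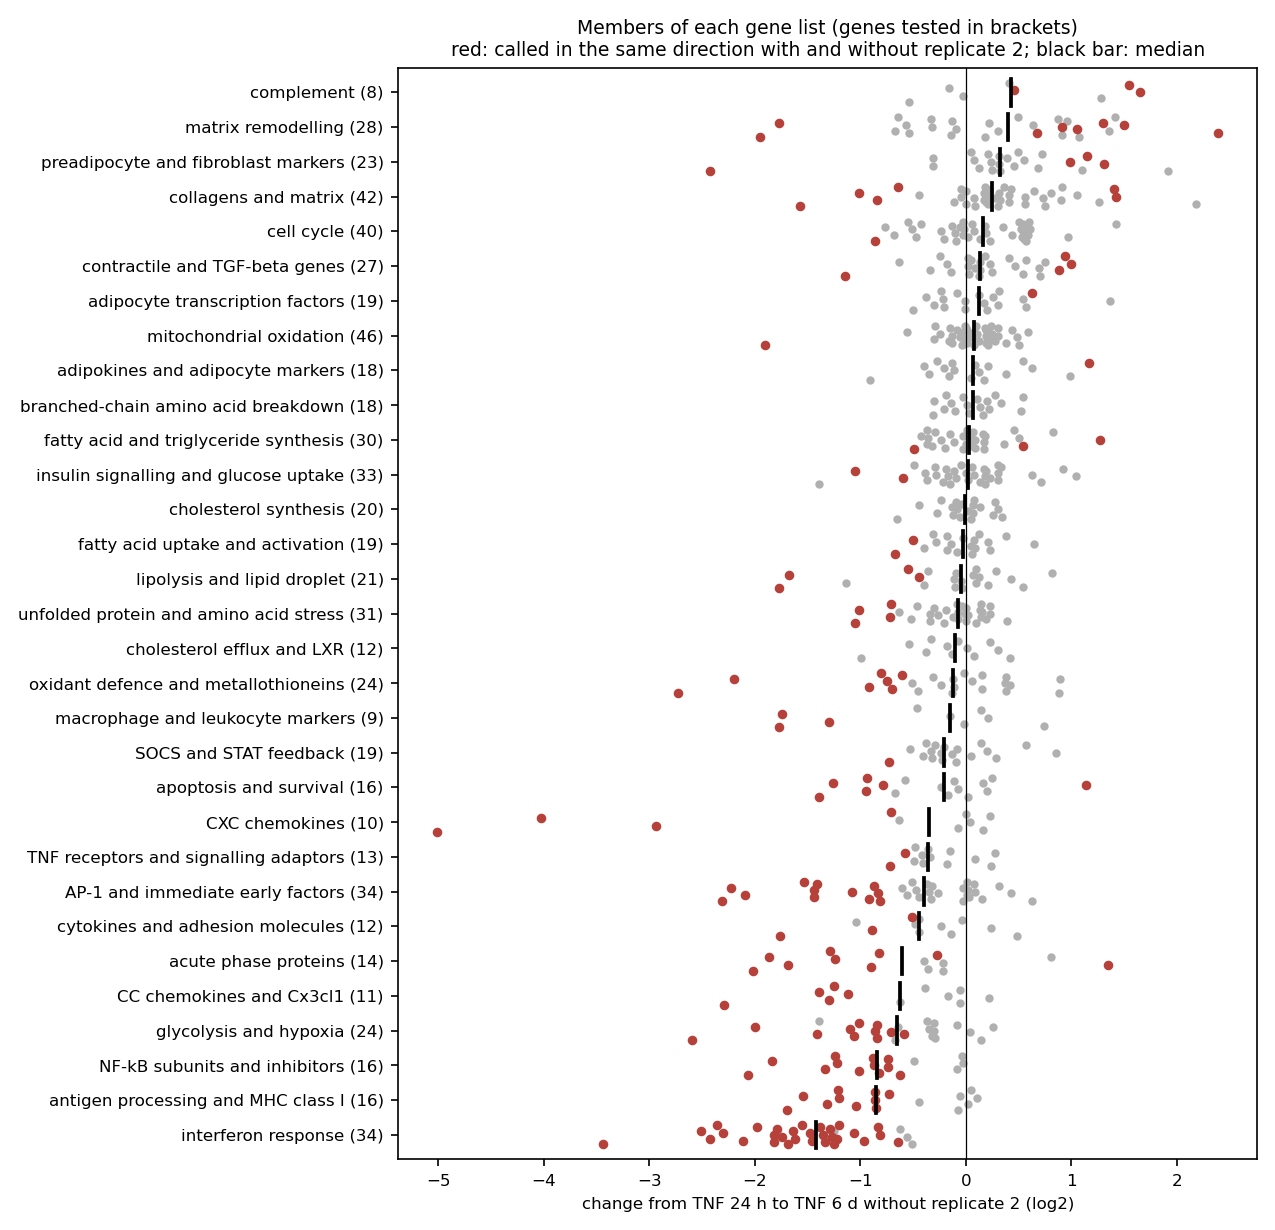
Change from TNF 24 h to TNF 6 d without replicate 2 (log2, x axis) for each member of the gene lists with at least 8 genes tested, the number tested in brackets. Red points were called in the same direction with and without replicate 2, grey points were not, and black bars are medians, from -1.42 for interferon response genes to 0.43 for complement.

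Several genes outside the lists rose from 24 h to 6 d. Sned1, a matrix protein, read 6.95, 6.43 and 7.03 at 24 h and 9.52, 8.09 and 10.21 at 6 d, against a control mean of 8.47. It rose by 2.47 ± 0.36 with all arrays and by 3.06 ± 0.23 without replicate 2, and was then 1.39 ± 0.23 above control, a difference not called with replicate 2 (0.80, limma adjusted p = 0.12). Clca3a1, a chloride channel accessory protein, read 9.21, 9.0 and 8.82 and then 11.57, 10.40 and 11.65, where the control mean was 9.37. The transcription factor Maf moved likewise, from 10.90, 10.84 and 10.58 to 12.54, 11.89 and 12.71. Slc40a1, which encodes the iron exporter ferroportin, had been lowered from 9.39 to a mean of 7.38 at 2 h, read 7.92, 7.87 and 7.79 at 24 h, and was back at 9.65, 9.07 and 9.92 at 6 d.

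Of 25 macrophage and leukocyte genes on the array 9 passed the filter, of which 3 were called lower and none higher with all arrays, and 3 and 1 without replicate 2. Their mean level lay between 7.10 and 7.47 on the TNF 24 h arrays and between 6.75 and 6.81 on the TNF 6 d arrays, against 6.07 to 6.16 on the controls. Cybb, the catalytic subunit of the phagocyte oxidase, read 6.81, 6.49 and 8.02 at 24 h and 4.41, 4.42 and 4.35 at 6 d, and Mpeg1, a pore-forming protein, 8.38, 8.41 and 8.97 and then 6.87, 6.11 and 6.76. The defining markers Ptprc, Adgre1, Itgam and Tyrobp did not pass the filter on low levels, and Lyz2 stayed between 4.96 and 5.49 on all 6 arrays. The macrophage marker Cd68, which did pass, was lower at 6 d. Its change ran from -2.05 to -1.64 when any 1 array other than TNF 6 d replicate 2 was left out. With replicate 2 and 1 further TNF 24 h or 6 d array left out it ran from -1.4 to -1.14. Their part in the interferon and antigen processing results was not tested. Of 5 endothelial and 5 myocyte genes tested, 0 were called in either fit.

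The change from 24 h to 6 d differed between TNF and Dex for 266 genes with all arrays (2.19%) and 876 without replicate 2 (7.21%), in a limma contrast of the TNF step minus the Dex step, whose 4 groups share no array. Of the 34 interferon genes, 23 were called lower under TNF than under Dex with all arrays and 29 without replicate 2 (1.47% and 3.08% of all genes were), and of the 16 NF-kB genes 8 and 12. Cxcl10 changed by 0.05 under Dex against -4.03 under TNF, a difference of -4.09 without replicate 2 (limma adjusted p = 3.7e-07). For the matrix genes Lox and Lum the steps had opposite signs: Lox changed by -0.81 under Dex and 2.39 under TNF without replicate 2, and Lum by -2.63 and 2.18. Col1a1 and Col3a1 differed between the steps by 1.68 and 1.10 without replicate 2, while their TNF steps were not called in that fit. Cholesterol synthesis genes, of which 0 were called in the TNF step, were called higher relative to the Dex step in 6 of 20 with all arrays and 15 without replicate 2 (0.716% and 4.13% of all genes were). For Retn the Dex step was -0.57 against 1.17 under TNF without replicate 2.

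**Figure D5:**
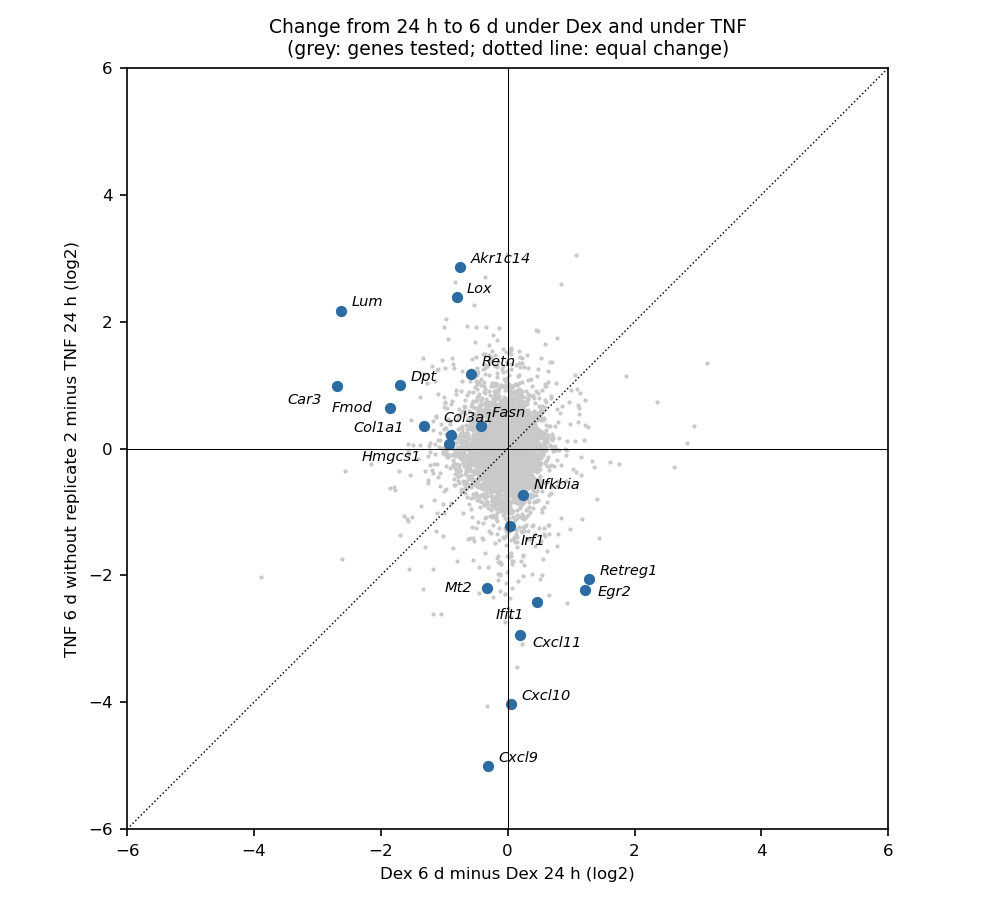
Change from TNF 24 h to TNF 6 d without replicate 2 (log2, y axis) against the change from Dex 24 h to Dex 6 d (log2, x axis) for 12156 genes tested, in grey, with 20 genes whose steps differed marked in blue. Cxcl9, Cxcl10 and Cxcl11 lie at -2.94 or lower on the TNF axis with Dex changes near 0, and Lum and Car3 lie above 0 for TNF and below -2 for Dex.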

How the data were processed

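Total RNA from 3T3-L1 cultures, extracted with TRIzol, was hybridised to Affymetrix mouse arrays. The authors deposited log2 values per probe set, made with RMA per the submitters' processing notes. RMA equalises probe intensities between arrays, yet the spread of the deposited values was 2.04 (SD) on TNF 6 d replicate 2 and 2.44 to 2.51 on the others. Depth does not apply to arrays, where the number of arrays limits the precision. Of 45101 probe sets 34958 list 1 gene, 932 several and 9211 none in the platform annotation, and 34754 symbols were updated through RefSeq. A gene was represented by its single-gene probe set with the highest mean over all arrays. Of 18194 genes, 12156 above the median of all values on at least 3 arrays were tested. Group means were fitted on 21 arrays in 7 groups with limma 3.58.1 in R 4.3.3 (lmFit, eBayes with trend), and p-values were Benjamini-Hochberg adjusted over all genes tested. A second fit left out TNF 6 d replicate 2, leaving 20 arrays. Python 3.11.15 with pandas 2.3.3 and matplotlib 3.10.9 made the summaries and plots. The fit was tested on simulated data with normal noise and no outlying array, so that test cannot show how replicate 2 affects the fit of 21 arrays. Named genes were the 12 largest changes each way called in both fits without overlap, up to 4 members of a list, a fixed set of TNF targets and adipocyte genes, the 6 largest changes each way among 2 h responders, and the 6 largest differences each way from the Dex step; the text describes a selection of these, and others chosen after their values were seen. Some genes of the fixed set were not analysed here. The members and lists were chosen with earlier results of these data known, and the promoter motifs were added after values were seen. Same-numbered arrays at 24 h and 6 d correlated at 0.292, -0.187 and -0.214 in their deviations, so the numbers were not treated as pairs. Alternatives covered normalisation, array weights, filters, probe set choice, the arrays fitted, the replicate block and each array left out in turn.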

Additional observations from a re-analysis of the deposited data

Results flagged for a closer look

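The step from 24 h to 6 d differed between TNF and Dex, by the limma contrast of both steps without TNF 6 d replicate 2, for the following genes. The values are the TNF step minus the Dex step on the log2 scale. Among inflammatory genes the difference was -4.70 for Cxcl9, -4.09 for Cxcl10, -3.13 for Cxcl11, -2.89 for Ifit1, -1.26 for Irf1 and -0.99 for Nfkbia. It was -3.45 for Egr2, -3.35 for Retreg1, a receptor for turnover of the endoplasmic reticulum, and -1.87 for Mt2. Among matrix genes it was 3.19 for Lox, 4.81 for Lum, 2.70 for Dpt, 2.50 for Fmod, 1.68 for Col1a1 and 1.10 for Col3a1. Among metabolic genes it was 3.68 for Car3, 3.61 for Akr1c14, 1.75 for Retn, 0.99 for Hmgcs1 and 0.78 for Fasn. No test for an outlying value of a single gene was run within groups of 3 arrays.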

How the results depend on the processing

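The number of genes called between TNF 24 h and TNF 6 d moved with the array set and the normalisation, and the cause was not tested. Leaving out replicate 2 in every step gave 1118 genes, 501 higher, with 883 differing between TNF and Dex steps. Array weights gave 4071 (1887 higher, 2184 lower), 3899 differing from Dex and 71.3% of the 2 h responders lower. A 2-fold minimum gave 408 (65 higher, 343 lower). Quantile normalisation gave 307 higher and 411 differing from Dex, cyclic loess 421 and 495, and median centring 91 higher. Fitting only the groups compared, with fewer residual degrees of freedom, gave 2 genes (0 higher, 2 lower), 73 differing from Dex and 0% of the responders lower; without replicate 2 these were 419 (238 lower), 746 and 27.8%. With 1 array left out, alone or together with TNF 6 d replicate 2, the genes called ranged from 387 to 3826, higher calls from 65 to 603, lower calls from 257 to 3223, genes differing from Dex from 179 to 974 and responders lower from 29.4% to 68.4%; the counts were 404, 417 and 387 without TNF 24 h replicate 1, 2 or 3, and 3826 and 3556 without TNF 6 d replicate 1 or 3. With the replicate number as a block over all groups, 790 genes were called (160 higher, 630 lower); with the replicate block on only the groups compared, 0 were called (0 higher, 0 lower), with 59 differing from Dex and 0% of responders lower. Among single genes, 4972 values under alternatives kept their side of the threshold, 502 lost it and 51 gained it. A further 3 changed sign and were called in the main fit or under the alternative. These were Col3a1 (0.18) and Irs1 (0.22) under array weights and Cd59a (-0.24) under the mean of all probe sets. Sign changes of values called in neither were counted as kept. Dim genes, 6038 in all, were not tested.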
